A study of Mus musculus with 12 samples.

Results

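The genes of bone morphogenetic protein (BMP), activin and transforming growth factor beta (TGF-beta) signaling were followed in epididymal white adipose tissue (eWAT), the fat pad beside the testis, of mice on 4 diets. The 54 genes were taken as a list by symbol from 23132 genes in the deposited expression table. The list was chosen with earlier results of these data known. They comprised 15 ligands, 13 receptors and co-receptors, 10 SMADs and their ubiquitin ligases, 7 antagonists, 4 inhibitor of DNA binding (ID) genes and 5 genes of ligand latency and processing. All mice were male C57BL/6J, 21 weeks old, and each group was given its diet for 16 weeks. The ND group received a normal diet and the HFD group a high-fat diet. The CLE group received the high-fat diet with 1.5% (w/w) of an ethanol extract of chrysanthemum leaf, and the LU group the high-fat diet with 0.003% (w/w) luteolin, a flavone. RNA of 3 mice per group was sequenced, giving 12 libraries. The study calls these samples representative of their groups and does not say how they were picked, so their spread may not be that of the whole group. The comparisons ask what the high-fat diet changed in the tissue and what either supplement changed on that diet.

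In this family, a secreted ligand dimer brings type I and type II receptor kinases together, and the type I receptor phosphorylates a SMAD protein that enters the nucleus with SMAD4. BMP ligands mostly signal through SMAD1, SMAD5 and SMAD9 and switch on the ID genes, whereas TGF-beta and activins use SMAD2 and SMAD3. Extracellular antagonists such as noggin and follistatin bind ligands, and latent TGF-beta binding proteins hold TGF-beta in the matrix. In adipose tissue, BMP4 is known for commitment of progenitors to the adipocyte lineage, and TGF-beta for matrix deposition and for restraining adipocyte differentiation.

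Levels are given as FPKM, mapped fragments scaled by transcript length and library size, summed over the transcripts of a gene. FPKM is scaled by length, so that levels of different genes may be compared. Values by mouse are given in the order 2, 3 and 4 for ND, 12, 15 and 18 for HFD, 2, 4 and 11 for CLE, and 2, 3 and 8 for LU. Differences were tested with limma on log2(FPKM + 1), a scale that understates the change of low genes. Genes count as called where the fold change was over 1.5 and the p-value, adjusted by Benjamini-Hochberg over 12815 genes, was under 0.05, and "rose" and "fell" are used below only for called genes. Fold changes carry standard errors, and group means carry standard deviations (n = 3). With 3 mice against 3, the exact two-sided permutation test of a single gene cannot go below p = 0.1, the value it took wherever the mice of both groups did not overlap. The HFD mice serve in the comparison with ND and in both comparisons with the supplements, so these 3 sets of values are not independent.

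Of the 54 genes, 47 reached 1 FPKM in at least 3 libraries and were tested. Between HFD and ND, 19 of the 47 were called, against 25.7% of all genes tested. Of these, 8 were higher in HFD and 11 lower, beside 14.9% and 10.8% of all genes. Between CLE and HFD, 18 were called, against 16.6% of all genes. Of these, 10 were higher and 8 lower in CLE, beside 6.34% and 10.2% of all genes. Between LU and HFD, 10 were called, against 12.4% of all genes, with 5 higher and 5 lower in LU, beside 4.77% and 7.68%. All 10 were also called for CLE. Groups did not overlap for 29 of the 47 genes between HFD and ND, close to the 59.5% of all genes, for 31 between CLE and HFD (50.6% of all genes) and for 26 between LU and HFD (47.7%). The median log2 fold change of the 47 genes between HFD and ND was -0.05, that of all genes -0.02, and the median absolute log2 fold change was 0.44 against 0.32 for all genes. By role, 7 of 11 tested ligands, 5 of 12 receptors, 2 of 5 antagonists, 2 of 4 ID genes, 2 of 5 latency and processing genes and 1 of 10 SMAD and ubiquitin ligase genes were called between HFD and ND.

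**Figure D1:**
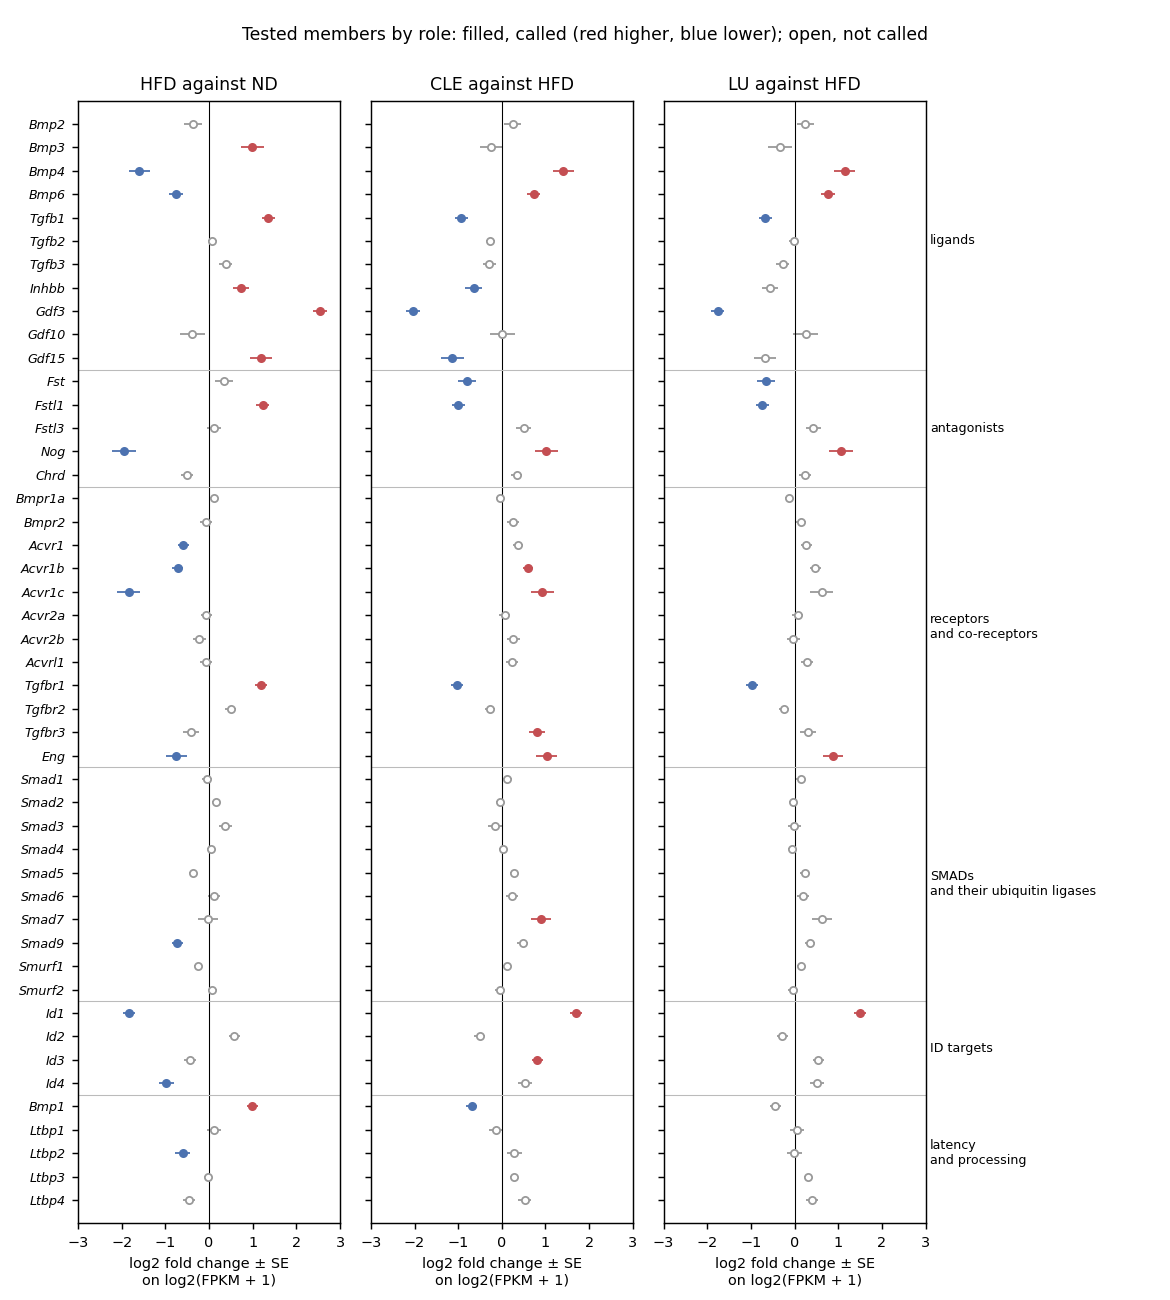
Log2 fold change on the log2(FPKM + 1) scale with its standard error (x axis) for the 47 tested genes (y axis, grouped by role) between HFD and ND, CLE and HFD, and LU and HFD. Filled points are called genes, red for higher and blue for lower, and open points are not called. Ligands and receptors carry most of the filled points, and 1 of the 10 SMAD and ubiquitin ligase genes is filled between HFD and ND.

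Marker genes of several cell types moved with the diet. The summed FPKM of 10 macrophage markers was 340.5 to 515 in ND, 2465 to 2861 in HFD, 599.5 to 909.5 in CLE and 933 to 1097 in LU, and 9 of the 10 were called higher in HFD than in ND. The sum of 10 adipocyte markers was 32190 to 34100 in ND, 20130 to 22400 in HFD, 28210 to 31400 in CLE and 26390 to 32230 in LU, with 7 of 10 called lower and 1 higher in HFD than in ND. Neither sum overlapped between HFD and any other group. The 7 endothelial markers summed to 243.5 to 393.3 in ND, 192.5 to 316.9 in HFD, 297.6 to 429 in CLE and 334.9 to 409.8 in LU. Of these, 1 was called lower in HFD than in ND, 3 higher in CLE and 4 higher in LU than in HFD. The 6 smooth muscle and pericyte markers summed to 193.4 to 340.5 in ND, 177.6 to 201.5 in HFD, 271.3 to 310.3 in CLE and 288.5 to 345.2 in LU, with 2 called lower in HFD than in ND. The 6 mesothelial markers summed to 9.85 to 59.7 in ND and 2.32 to 7.29 in HFD, where 5 of 6 were called lower. In whole tissue, fewer cells of a type and less RNA per cell cannot be told apart, and the part of these shifts in the values below was not tested.

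**Figure D2:**
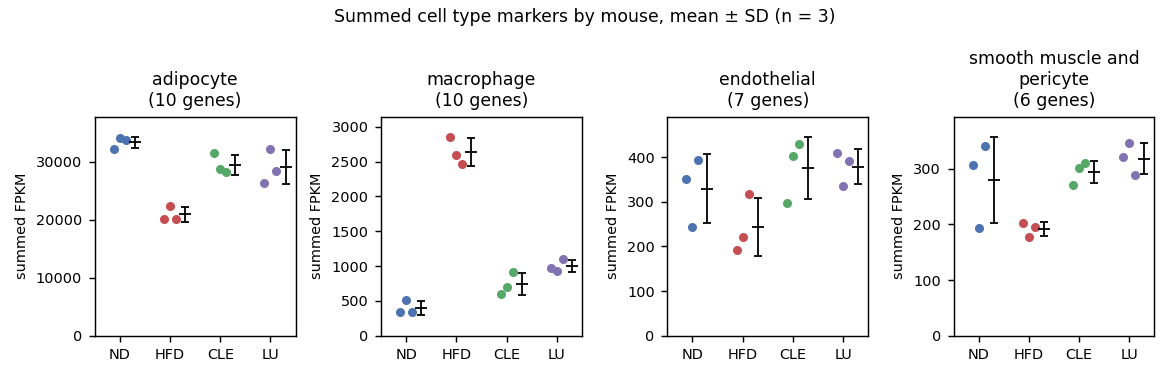
Summed FPKM (y axis) of marker genes of adipocytes, macrophages, endothelial cells, and smooth muscle cells and pericytes in each mouse of the 4 groups (x axis), with the mean and SD of 3 mice beside the points. The HFD mice stand lowest for adipocyte markers (20130 to 22400) and highest for macrophage markers (2465 to 2861).

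Among the BMP ligands, Bmp4 and Bmp6 fell and Bmp3 rose on the high-fat diet. Bmp4 (ENSMUSG00000021835.15, GRCm38 chromosome 14, 46383520 to 46390669, minus strand in GENCODE M21) was at 5.20, 6.18 and 11.3 FPKM in ND, 1.60, 1.42 and 2.13 in HFD, 6.05, 8.12 and 4.76 in CLE and 4.86, 4.49 and 5.66 in LU. Every HFD mouse lay below every mouse of the other 3 groups. Bmp4 fell in HFD (log2 fold change -1.60 ± 0.23, adjusted p = 0.000184) and was higher than HFD in CLE (1.41 ± 0.23, adjusted p = 0.000877) and in LU (1.15 ± 0.23, adjusted p = 0.00457). Transcripts assembled from the reads that share a splice junction with a known one held 72.6% of its FPKM. Without them the difference from HFD was 0.81 for CLE (adjusted p = 0.0627) and 0.44 for LU (adjusted p = 0.317), no longer called, while the fall in HFD remained called. The CLE call was also lost on the single most abundant transcript (1.03, adjusted p = 0.0754).

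Bmp6, known in the liver as the inducer of hepcidin and expressed by endothelial cells and adipocytes, was at 17.2, 12.6 and 20.8 FPKM in ND and 8.42, 9.53 and 10.3 in HFD. It was at 14.5, 18.7 and 15.7 in CLE and 16.5, 16.6 and 17.1 in LU. The HFD mice were again the lowest, without overlap with any other group. Bmp6 fell in HFD (-0.75 ± 0.15, adjusted p = 0.00178) and was higher in CLE (0.73 ± 0.15, adjusted p = 0.00382) and in LU (0.77 ± 0.15, adjusted p = 0.00410). With known transcripts alone, the difference from HFD was 0.54 for CLE (adjusted p = 0.0522) and 0.57 for LU (adjusted p = 0.0538). Both were under the fold threshold and did not pass the test. The 2 calls were also lost on the single most abundant transcript (adjusted p = 0.0561 for CLE and 0.0588 for LU). Opposite-strand exons overlap 3.96% of the exonic bases of Bmp4 (Gm15217) and 5.74% of those of Bmp6 (Txndc5), and the sources used here do not say whether reads were assigned by strand.

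Bmp3, an atypical BMP that opposes the signaling of other BMPs, went the other way. Its levels were 7.51, 13.7 and 20.6 FPKM in ND and 30.6, 24.2 and 25.7 in HFD (log2 fold change 0.99 ± 0.27, adjusted p = 0.00876). The ND mice spread widely and all lay below the HFD mice. CLE (24.6, 18.03 and 25.3 FPKM) and LU (19.4, 20.3 and 23.5 FPKM) did not pass the test against HFD (-0.24 ± 0.27, adjusted p = 0.515 and -0.34 ± 0.27, adjusted p = 0.379). Bmp2 was not called in any comparison and had group means between 2.42 and 3.60 FPKM.

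Noggin (Nog, ENSMUSG00000048616.4, chromosome 11, 89300638 to 89302332), the secreted antagonist that binds BMP ligands and blocks their receptor contacts, fell together with Bmp4 and Bmp6. It was at 9.01, 15.3 and 9.43 FPKM in ND and 1.70, 2.23 and 2.43 in HFD, a ratio of mean FPKM of 0.188 (log2 fold change -1.95 ± 0.27, adjusted p = 0.000119). The CLE mice were at 7.20, 4.30 and 4.73 and the LU mice at 5.15, 8.63 and 3.62, between the HFD and ND mice without overlap with either group. The rises in CLE (1.02 ± 0.27, adjusted p = 0.0125) and LU (1.07 ± 0.27, adjusted p = 0.0132) sat close to the threshold. Without HFD mouse 12 the adjusted p was 0.0502 for CLE and 0.0533 for LU, without CLE mouse 2 it was 0.0526 for CLE, and without LU mouse 3 it was 0.0503 for LU.

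**Figure D3:**
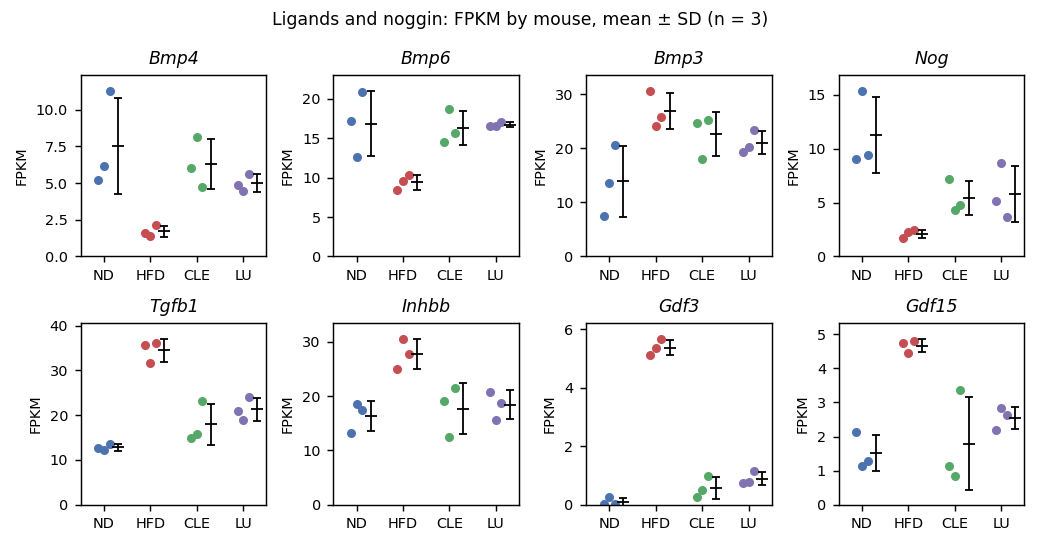
FPKM (y axis, from 0) of Bmp4, Bmp6, Bmp3, Nog, Tgfb1, Inhbb, Gdf3 and Gdf15 in each mouse of the 4 groups (x axis), with the mean and SD of 3 mice beside the points. Bmp4, Bmp6 and Nog are lowest in HFD, where Bmp4 is at 1.42 to 2.13 FPKM, and Tgfb1, Inhbb, Gdf3 and Gdf15 are highest there, with Gdf3 at 5.12 to 5.66 FPKM.

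The ligands of the TGF-beta, activin and growth differentiation factor (GDF) branches that were called rose on the high-fat diet. Tgfb1 (ENSMUSG00000002603.15, chromosome 7, 25687002 to 25705077, plus strand), the main TGF-beta isoform of immune cells and fibrotic tissue, was at 12.7, 12.1 and 13.5 FPKM in ND, 35.6, 31.6 and 36.1 in HFD, 14.9, 15.8 and 23.2 in CLE and 21.0, 18.9 and 24.1 in LU. The HFD mice stood above all others, and the supplemented mice lay between HFD and ND with no overlap on either side. Tgfb1 rose in HFD (1.36 ± 0.15, adjusted p = 2.06e-05) and was lower in CLE (-0.93 ± 0.15, adjusted p = 0.000669) and in LU (-0.67 ± 0.15, adjusted p = 0.00662). It was still higher in LU than in ND (0.69 ± 0.15, adjusted p = 0.0116), a call that was lost without LU mouse 8 (adjusted p = 0.0533) and on the single most abundant transcript (adjusted p = 0.0503). Without the libraries marked R in the labels, ND mouse 2 is alone in its group, so only the log2 fold change is given for comparisons with ND. For Tgfb1 in LU against ND it was 0.70. The other isoforms were not called. Tgfb3 was at 10.5 ± 2.06 FPKM in ND and 13.9 ± 1.81 in HFD (log2 fold change 0.38 ± 0.14, adjusted p = 0.0452), under the fold threshold, and Tgfb2 had group means between 0.774 and 1.13 FPKM.

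Gdf3 (ENSMUSG00000030117.5, chromosome 6, 122605403 to 122610087, minus strand), a ligand known in adipose tissue for its expression by macrophages and for signaling through ALK7, had the largest fold change of the 47 genes between HFD and ND. It was at 0.0231, 0.254 and 0.0281 FPKM in ND and 5.12, 5.36 and 5.66 in HFD. The CLE mice were at 0.249, 0.507 and 0.989 and the LU mice at 0.734, 0.783 and 1.14. All 9 mice outside HFD were at or below 1.14 FPKM, and the filter on low values was met through the 3 HFD mice and LU mouse 8. The log2 fold change was 2.54 ± 0.16 (adjusted p = 7.20e-07) between HFD and ND, -2.04 ± 0.16 (adjusted p = 1.98e-05) between CLE and HFD, and -1.76 ± 0.16 (adjusted p = 0.000106) between LU and HFD. LU was higher than ND (0.78 ± 0.16, adjusted p = 0.00870), which did not pass the test with the mouse number as a replicate block (adjusted p = 0.0655), nor the fold threshold after quantile normalization (0.58). Without the libraries marked R, with ND mouse 2 alone in its group, the difference of LU from ND was 0.93. The summed macrophage markers were likewise highest in HFD, and their part in the values of Tgfb1 and Gdf3 was not tested.

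Inhbb encodes the beta B subunit of activin B, an activin made by adipocytes. It was at 13.3, 18.6 and 17.4 FPKM in ND and 25.0, 30.5 and 27.7 in HFD and rose (0.73 ± 0.19, adjusted p = 0.00715). In CLE it was at 19.1, 12.5 and 21.5, every mouse below the HFD mice, and fell (-0.65 ± 0.19, adjusted p = 0.0199). That call was lost without HFD mouse 15 (-0.58, adjusted p = 0.0704) or HFD mouse 18 (-0.65, adjusted p = 0.0529). Without CLE mouse 4, the only CLE library marked R, the difference shrank to -0.43 (adjusted p = 0.0721), and without all libraries marked R it was -0.43 (adjusted p = 0.0462), under the fold threshold. In LU (20.8, 15.6 and 18.8 FPKM) the difference of -0.57 ± 0.19 (adjusted p = 0.0429) stayed under the fold threshold.

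Gdf15, a stress-induced cytokine that acts on a hindbrain receptor outside the family, was at 2.14, 1.13 and 1.30 FPKM in ND and 4.75, 4.46 and 4.80 in HFD (log2 fold change 1.19 ± 0.26, adjusted p = 0.00265). The CLE mice spread over 1.14, 0.858 and 3.35 FPKM and were lower than HFD (-1.13 ± 0.26, adjusted p = 0.00601). LU was at 2.18, 2.84 and 2.63 FPKM, below every HFD mouse, but did not pass the test (-0.68 ± 0.26, adjusted p = 0.0718). Without the libraries marked R, with ND mouse 2 alone in its group, the difference between HFD and ND was 0.85. Gdf10, a BMP3-related factor, was not called in any comparison and its group means lay between 9.61 and 13.5 FPKM.

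Of the other antagonists, the follistatin-related genes differed among themselves. Fstl1, a secreted glycoprotein of mesenchymal cells that can bind BMP4, was one of the most abundant of the 54 genes at 45.6, 50.4 and 64.9 FPKM in ND and 125, 122 and 131 in HFD. Its levels were 72.5, 64.9 and 52.5 in CLE and 82.8, 79.3 and 64.7 in LU, all below the HFD mice. Fstl1 rose in HFD (1.23 ± 0.15, adjusted p = 4.77e-05), was lower in CLE (-0.99 ± 0.15, adjusted p = 0.000473) and lower in LU (-0.74 ± 0.15, adjusted p = 0.00447).

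Fst, encoding follistatin, which neutralizes activins, was not called between HFD and ND (0.35 ± 0.21, adjusted p = 0.177), with 5.41, 3.11 and 3.33 FPKM in ND and 6.66, 4.41 and 4.73 in HFD. It fell in CLE to 2.39, 3.59 and 1.85 FPKM (-0.81 ± 0.21, adjusted p = 0.0111) and in LU to 3.06, 2.51 and 3.19 FPKM (-0.66 ± 0.21, adjusted p = 0.0339). The CLE and LU mice lay below the HFD mice and, except for CLE mouse 4 and LU mouse 8, below the ND mice too. HFD mouse 12 was the highest of all, and without it the adjusted p was 0.0506 for CLE and 0.132 for LU. The LU call was also lost without HFD mouse 18 or any 1 of the 3 LU mice (adjusted p 0.0526 to 0.112), without a filter on low values (0.0678) and with the letter R as a covariate (0.0542). Fstl3 was at 6.33 ± 1.98 FPKM in ND and 6.75 ± 0.313 in HFD. It was higher in CLE than in HFD (0.50 ± 0.17, adjusted p = 0.0384), under the fold threshold, and 47.3% of its exonic bases overlap Prss57 on the other strand. Chordin (Chrd), a BMP antagonist cleaved by BMP1, was at 6.24 ± 0.840 FPKM in ND and lower in HFD at 4.08 ± 0.513 (-0.51 ± 0.14, adjusted p = 0.00870), also under the fold threshold.

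Among the receptors and co-receptors, Acvr1, Acvr1b, Acvr1c and Eng fell and Tgfbr1 rose on the high-fat diet. Acvr1c encodes ALK7, the type I receptor of adipocytes for activin B and GDF3, which is known to restrain lipolysis. It was at 55.6, 61.4 and 45.4 FPKM in ND and at 12.3, 18.02 and 13.3 in HFD. The HFD mice lay below every ND mouse, at a ratio of mean FPKM of 0.268 (log2 fold change -1.84 ± 0.26, adjusted p = 0.000162). CLE mice were at 36.1, 30.6 and 19.9 and LU mice at 27.2, 28.9 and 14.7, all below every ND mouse. The rise in CLE over HFD (0.92 ± 0.26, adjusted p = 0.0192) was lost without HFD mouse 12 or 18 or CLE mouse 2 or 4 (adjusted p 0.0602 to 0.0760) and without the libraries marked R (0.102). LU was not called against HFD (0.63 ± 0.26, adjusted p = 0.101) and was lower than ND (-1.21 ± 0.26, adjusted p = 0.0129). Without the libraries marked R, with ND mouse 2 alone in its group, the difference of LU from ND was -1.38. On the single most abundant transcript neither the LU difference from ND (-1.02, adjusted p = 0.253) nor the CLE rise (0.73, adjusted p = 0.326) was called. With known transcripts alone, which leave out 46.3% of the FPKM of the gene, the log2 fold change between HFD and ND was -1.15 with an adjusted p of 0.0961, and the CLE rise (0.64, adjusted p = 0.400) and the LU difference from ND (-0.83, adjusted p = 0.369) were not called either. The summed adipocyte markers were lowest in HFD too, and their part in the values of Acvr1c was not tested.

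Acvr1b, encoding ALK4, the type I receptor of activins, was at 28.5, 29.0 and 25.3 FPKM in ND and 16.1, 16.2 and 16.7 in HFD (log2 fold change -0.72 ± 0.12, adjusted p = 0.000496). CLE mice were at 28.6, 28.2 and 20.1 and LU mice at 22.6, 24.3 and 22.3, all above the HFD mice. The CLE rise was 0.60 ± 0.12 (adjusted p = 0.00291) and fell under the fold threshold without CLE mouse 2 (0.52), CLE mouse 4 (0.53) or the libraries marked R (0.53), while the LU difference of 0.47 ± 0.12 (adjusted p = 0.0144) was under it from the start. Acvr1, encoding ALK2, a type I receptor for BMPs, was at 22.9, 21.1 and 21.4 in ND and 16.1, 12.4 and 14.2 in HFD (log2 fold change -0.59 ± 0.12, adjusted p = 0.00200). That change sat at the fold threshold of 1.5, 0.585 on the log2 scale, and was under it without ND mouse 2 (-0.56) or HFD mouse 15 (-0.50), with equal totals (-0.58), with array weights (-0.58) and with the letter R as a covariate (-0.53). In CLE (19.5, 18.2 and 18.2 FPKM) Acvr1 was above every HFD mouse (0.37 ± 0.12, adjusted p = 0.0350), and in LU it was at 21.0, 16.2 and 15.1 FPKM and overlapped HFD.

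Tgfbr1, encoding ALK5, the type I receptor for TGF-beta, took the opposite course. It was at 13.4, 11.5 and 10.7 FPKM in ND, 34.9, 25.6 and 25.0 in HFD, 12.3, 13.8 and 14.1 in CLE and 15.7, 12.3 and 13.7 in LU. The HFD mice stood well above the rest, and the CLE and LU mice overlapped the ND mice. The log2 fold change was 1.19 ± 0.14 (adjusted p = 3.27e-05) between HFD and ND, -1.02 ± 0.14 (adjusted p = 0.000227) between CLE and HFD, and -0.98 ± 0.14 (adjusted p = 0.000575) between LU and HFD. Tgfbr2, the type II partner, was at 37.9 ± 4.14 FPKM in ND and higher in HFD at 53.5 ± 2.88 (0.49 ± 0.12, adjusted p = 0.00457), under the fold threshold.

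The co-receptors Tgfbr3 (betaglycan, which presents TGF-beta and inhibin) and Eng (endoglin, a co-receptor of endothelial cells for BMP9 and TGF-beta) were higher with the supplements than in HFD. Tgfbr3 was at 30.0, 30.6 and 30.5 FPKM in HFD and 54.96, 68.1 and 41.2 in CLE (log2 fold change 0.80 ± 0.18, adjusted p = 0.00635), with the CLE mice all above. It was at 53.96, 35.9 and 34.7 in ND and 41.7, 36.1 and 36.5 in LU, also above the HFD mice, but the test was not passed against HFD (-0.41 ± 0.18, adjusted p = 0.0841 for HFD against ND and 0.31 ± 0.18, adjusted p = 0.232 for LU). Eng was at 124, 56.9 and 103 FPKM in ND, 50.8, 48.0 and 61.4 in HFD, 90.4, 114 and 127 in CLE and 108, 97.7 and 91.0 in LU. ND mouse 3 lay within the HFD range, so that HFD and ND overlapped, whereas all CLE and LU mice were above HFD. Eng fell in HFD (-0.75 ± 0.24, adjusted p = 0.0200) and rose in CLE (1.03 ± 0.24, adjusted p = 0.00612) and in LU (0.88 ± 0.24, adjusted p = 0.0175). The call between HFD and ND was lost without ND mouse 2 or 4 or HFD mouse 12 or 15 (adjusted p 0.0573 to 0.0830) and in a fit of these 2 groups alone (0.0505). The LU call was lost without HFD mouse 12 or 15 or LU mouse 2 (0.0571 to 0.0595). The summed endothelial markers had their lowest range in HFD, as given above, and their part in the difference was not tested.

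**Figure D4:**
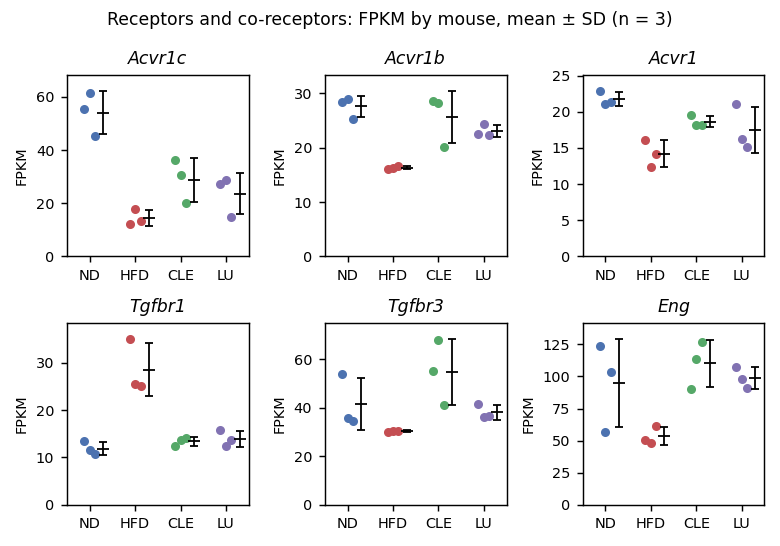
FPKM (y axis, from 0) of Acvr1c, Acvr1b, Acvr1, Tgfbr1, Tgfbr3 and Eng in each mouse of the 4 groups (x axis), with the mean and SD of 3 mice beside the points. Acvr1c, Acvr1b and Acvr1 are lower in HFD than in ND, with Acvr1c at 12.3 to 18.02 against 45.4 to 61.4 FPKM, whereas Tgfbr1 is highest in HFD at 25.0 to 34.9 FPKM.

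The remaining receptors, Bmpr1a, Bmpr2, Acvr2a, Acvr2b and Acvrl1, were not called in any comparison. Their HFD means were 30.5, 13.8, 6.98, 2.21 and 23.1 FPKM, beside ND means of 28.0, 14.4, 7.44, 2.72 and 24.3 FPKM. Of the FPKM of Acvr2b, 89.5% lay in assembled transcripts, and with known transcripts alone it was at 0.38 in ND, 0.292 in HFD, 0.225 in CLE and 0.143 in LU, under 1 FPKM. For Bmpr2 the share was 49.9%, and with known transcripts alone it was at 5.16 FPKM in ND, 8.22 in HFD, 8.85 in CLE and 7.78 in LU. The near-equal ND and HFD means of Bmpr2 thus rest on the assembled transcripts. With assembled transcripts included, the 95% intervals of the type II receptors for HFD against ND were -0.36 to 0.22 for Bmpr2, -0.35 to 0.21 for Acvr2a and -0.53 to 0.09 for Acvr2b on the log2 scale.

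The median absolute log2 fold change between HFD and ND was 0.14 for the 10 SMAD and ubiquitin ligase genes and 0.75 for the 11 tested ligands. Smad1, Smad2, Smad3, Smad4 and Smad6 had no adjusted p under 0.05 in any of the comparisons, and their levels over all 12 mice lay between 10.5 and 14.3 FPKM for Smad1, 13.7 and 17.5 for Smad2, 10.95 and 19.6 for Smad3, 30.9 and 37.9 for Smad4, and 9.42 and 16.3 for Smad6. Between HFD and ND they differed by log2 fold changes of -0.05, 0.16, 0.38, 0.04 and 0.11. The ubiquitin ligase genes Smurf1 and Smurf2, whose products mark SMADs and receptors for degradation, were not called. Smurf2 was at 21.3 ± 2.44 FPKM in ND and 22.4 ± 1.37 in HFD (0.08 ± 0.11, adjusted p = 0.593). Smurf1 was at 20.6 ± 2.43 FPKM in ND and lower in HFD at 17.1 ± 0.542 (-0.25 ± 0.10, adjusted p = 0.0451). Smad5, a BMP-branch effector, was at 23.5 ± 2.45 FPKM in ND, lower in HFD at 17.96 ± 1.03 (-0.37 ± 0.10, adjusted p = 0.00785) and higher in CLE than in HFD at 22.1 ± 2.07 (0.28 ± 0.10, adjusted p = 0.0435), both under the fold threshold.

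Smad9, the third effector of the BMP branch and itself a known BMP target, fell on the high-fat diet. It was low throughout, at 1.31, 1.12 and 1.04 FPKM in ND and 0.434, 0.205 and 0.275 in HFD, without overlap (log2 fold change -0.73 ± 0.12, adjusted p = 0.000559). It met the filter on low values through the 3 ND mice and CLE mouse 4, and with known transcripts alone it did not pass that filter and was not tested. The CLE mice were at 0.880, 1.14 and 0.487 (0.48 ± 0.12, adjusted p = 0.0117, under the fold threshold) and the LU mice at 0.718, 0.586 and 0.688 (0.35 ± 0.12, adjusted p = 0.0547, not passing the test), all above the HFD mice.

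Smad7, the inhibitory SMAD that both TGF-beta and BMP signaling induce, did not pass the test between HFD and ND (-0.02 ± 0.23, adjusted p = 0.946), at 8.08, 4.00 and 7.36 FPKM in ND and 7.71, 4.87 and 6.09 in HFD. In CLE it was at 11.1, 14.1 and 12.0 FPKM, above every ND and every HFD mouse. It rose over HFD (0.90 ± 0.23, adjusted p = 0.0107). The rise over ND of 0.88 ± 0.23 (adjusted p = 0.0493) was the single call among the 47 genes between CLE and ND and was lost in 10 of the 12 fits that left out 1 library (adjusted p up to 0.121 without CLE mouse 4). Without the libraries marked R, with ND mouse 2 alone in its group, the difference of CLE from ND was 0.47. With the mouse number as a replicate block it was 0.68 (adjusted p = 0.203). The call over ND was also lost with a pseudocount of 0.1 (adjusted p = 0.0617), on the single most abundant transcript (0.139) and with known transcripts alone (0.102). The LU mice, at 10.6, 7.63 and 12.1 FPKM, overlapped HFD (0.62 ± 0.23, adjusted p = 0.0662).

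The ID genes, direct targets of BMP-activated SMADs in many cell types, did not move as one. Id1 (ENSMUSG00000042745.9, chromosome 2, 152736251 to 152737410, plus strand) was at 56.0, 39.3 and 52.3 FPKM in ND, 12.9, 12.0 and 13.9 in HFD, 38.7, 48.1 and 46.2 in CLE and 40.0, 39.9 and 35.2 in LU. The HFD mice were far below the other 9, and the ratio of mean FPKM was 0.263 for HFD over ND, 3.43 for CLE over HFD and 2.97 for LU over HFD. The log2 fold changes were -1.84 ± 0.13 (adjusted p = 1.37e-06), 1.70 ± 0.13 (adjusted p = 1.98e-05) and 1.50 ± 0.13 (adjusted p = 0.000106). These were called in every fit that left out 1 library.

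Id4 was low and fell in HFD from 3.40, 1.73 and 2.10 to 0.805, 0.579 and 0.708 FPKM (log2 fold change -0.98 ± 0.17, adjusted p = 0.000574), without overlap. It was at 1.05, 1.53 and 1.82 in CLE and 1.43, 1.66 and 1.20 in LU, above the HFD mice, with differences of 0.53 ± 0.17 (adjusted p = 0.0311) and 0.51 ± 0.17 (adjusted p = 0.0418) that were under the fold threshold. Id3 was the most abundant of the 4, at 58.7, 52.0 and 70.4 FPKM in ND and 43.6, 45.2 and 43.1 in HFD, and its difference of -0.44 ± 0.13 (adjusted p = 0.0163) stayed under the fold threshold. With CLE it was at 69.4, 75.5 and 90.4 and rose over HFD (0.81 ± 0.13, adjusted p = 0.000769), and with LU it was at 61.3, 59.0 and 74.3, a difference of 0.55 ± 0.13 (adjusted p = 0.0109). Id2 had the opposite sign, at 12.4, 11.6 and 9.96 FPKM in ND and 18.2, 16.7 and 17.2 in HFD. Its difference of 0.58 ± 0.13 (adjusted p = 0.00292) was just under the fold threshold, and in CLE (11.3, 11.7 and 12.7 FPKM) it was lower than in HFD (-0.51 ± 0.13, adjusted p = 0.00995). Of the 4 genes, therefore, Id1, Id3 and Id4 were lowest in HFD and Id2 highest in HFD, except that LU mouse 3 lay within the HFD range of Id2.

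**Figure D5:**
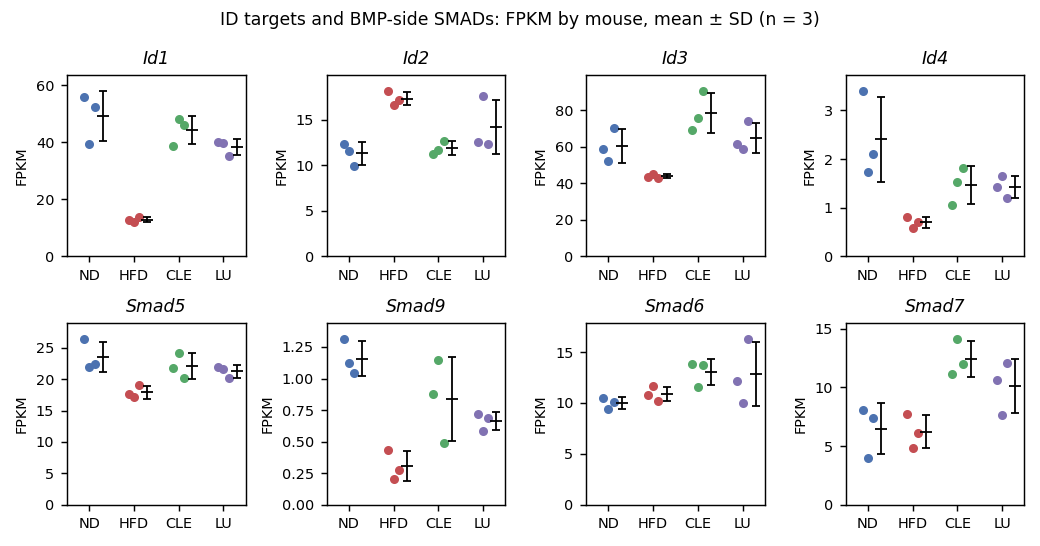
FPKM (y axis, from 0) of the 4 ID genes and of Smad5, Smad9, Smad6 and Smad7 in each mouse of the 4 groups (x axis), with the mean and SD of 3 mice beside the points. Id1 is at 12.0 to 13.9 FPKM in HFD and at 35.2 to 56.0 in the other groups. The mean of Id2 is highest in HFD and that of Smad7 in CLE. LU mouse 3 lies within the HFD range of Id2, and LU mouse 8 (12.1 FPKM) within the CLE range of Smad7.

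The bases before the start of 3 called genes of the BMP branch that fell, and of Tgfb1, which rose, are shown for the motifs that SMAD proteins are known to bind. The motifs were GGCGCC, bound by BMP-activated SMADs, and CAGAC, the SMAD box, searched on both strands (GTCTG for the latter) in the 250 bases before each start in the RefSeq promoter table of GRCm38.p6. The motifs share no bases in these windows, and capitals mark a match. Of 32851 promoters, 9.59% held GGCGCC and 42.2% held the SMAD box. Among 49 promoters of 39 of the 54 genes, 12 held GGCGCC (24.5%) and 24 the SMAD box (49%). Promoters of the same gene were counted separately, even where their windows overlap, as for Ltbp4. The shares were not matched for G and C content, and the difference from all promoters was not tested. Windows that overlap an exon were not shown, which left out Id2, Id3 and Bmp6, and Id1, Nog and Gdf3 have no entry in the table. Also not shown were exon-free windows of other called genes, among them Tgfbr1 and Inhbb, which rose, and Eng, which fell. For Tgfbr1, the window from 47352972 held 1 GGCGCC and no SMAD box, and the window from 47385966 held 1 SMAD box and no GGCGCC. The window of Inhbb held neither, and that of Eng held 2 SMAD boxes and no GGCGCC.
Id4 promoter, chr13:48260866-48261115, plus strand: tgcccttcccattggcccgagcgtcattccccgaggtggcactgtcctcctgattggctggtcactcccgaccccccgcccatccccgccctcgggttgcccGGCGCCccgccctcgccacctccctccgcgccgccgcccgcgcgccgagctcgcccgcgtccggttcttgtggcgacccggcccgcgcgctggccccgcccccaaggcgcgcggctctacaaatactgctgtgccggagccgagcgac
Smad9 promoter, chr3:54755332-54755581, plus strand: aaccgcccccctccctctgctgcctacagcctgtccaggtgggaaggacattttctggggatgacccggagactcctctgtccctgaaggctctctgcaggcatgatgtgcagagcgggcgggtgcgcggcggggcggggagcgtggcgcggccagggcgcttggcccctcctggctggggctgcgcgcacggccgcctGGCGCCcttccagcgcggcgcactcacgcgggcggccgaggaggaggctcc
Bmp4 promoter, chr14:46390670-46390919, minus strand: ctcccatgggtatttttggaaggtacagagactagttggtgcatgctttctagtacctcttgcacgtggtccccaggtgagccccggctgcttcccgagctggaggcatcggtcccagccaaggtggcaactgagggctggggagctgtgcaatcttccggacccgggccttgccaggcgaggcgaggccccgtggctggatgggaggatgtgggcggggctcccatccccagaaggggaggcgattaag
Tgfb1 promoter, chr7:25686752-25687001, plus strand: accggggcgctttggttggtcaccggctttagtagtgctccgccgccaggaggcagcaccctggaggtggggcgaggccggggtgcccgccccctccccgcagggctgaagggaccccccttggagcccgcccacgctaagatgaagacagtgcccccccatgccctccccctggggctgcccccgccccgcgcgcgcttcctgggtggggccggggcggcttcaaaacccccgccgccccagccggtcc
The windows of Id4 and Smad9 each held 1 GGCGCC and no SMAD box, and those of Bmp4 and Tgfb1 held neither. All 4 windows were rich in G and C, at 75.6% for Id4, 73.2% for Smad9, 63.2% for Bmp4 and 75.2% for Tgfb1. A match of letters is a description, and no binding was measured.

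Of the genes of latency and processing, Bmp1 rose and Ltbp2 fell on the high-fat diet. Bmp1 encodes a secreted metalloproteinase that trims procollagens and cleaves chordin and is no ligand. It was at 18.4, 21.3 and 25.1 FPKM in ND and 41.1, 42.0 and 48.0 in HFD (log2 fold change 0.99 ± 0.13, adjusted p = 6.48e-05), and at 25.0, 27.0 and 28.4 in CLE and 32.2, 27.8 and 36.3 in LU, all below the HFD mice. The fall in CLE was -0.68 ± 0.13 (adjusted p = 0.00165), and LU differed (-0.44 ± 0.13, adjusted p = 0.0241), under the fold threshold. With known transcripts alone the CLE difference was -0.47 (adjusted p = 0.0424), also under it. Ltbp2, a matrix protein of the latent TGF-beta binding family that does not itself hold TGF-beta, was at 14.2, 20.9 and 18.02 FPKM in ND, 10.2, 13.2 and 10.3 in HFD, 14.9, 12.4 and 14.3 in CLE and 8.44, 13.3 and 12.0 in LU. The HFD and LU mice lay below the ND mice (-0.61 ± 0.17, adjusted p = 0.0121 for HFD and -0.62 ± 0.17, adjusted p = 0.0369 for LU against ND). This direction rests on assembled transcripts, which held 87.3% of its FPKM. With known transcripts alone Ltbp2 was higher than in ND, by 1.01 in HFD (adjusted p = 0.0242) and 1.02 in LU (adjusted p = 0.0707). The HFD call was also lost without ND mouse 3 (-0.49), HFD mouse 12 (-0.55) or HFD mouse 18 (-0.56), and the LU call without ND mouse 3 or 4, HFD mouse 18 or LU mouse 2 or 8 (adjusted p 0.0512 to 0.123). Without the libraries marked R, with ND mouse 2 alone in its group, the difference from ND shrank to -0.33 in HFD and -0.16 in LU. The LU difference was also not called with the mouse number as a replicate block (-0.73, adjusted p = 0.0813), without a filter on low values (adjusted p = 0.0707) or in a fit of the 2 groups alone (adjusted p = 0.0964).

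The other latent TGF-beta binding proteins were not called. Ltbp3 was at 129 ± 11.1 FPKM in ND and 126 ± 2.05 in HFD, and differed from HFD by 0.28 ± 0.09 (adjusted p = 0.0318) in CLE and 0.30 ± 0.09 (adjusted p = 0.0297) in LU. Assembled transcripts held 84.5% of its FPKM, and with known transcripts alone it was at 27.6 FPKM in ND and 17.9 in HFD. Ltbp4 was at 90.6 ± 15.4 FPKM in ND and 64.8 ± 3.92 in HFD (-0.46 ± 0.14, adjusted p = 0.0173) and higher in CLE than in HFD (0.52 ± 0.14, adjusted p = 0.0147), under the fold threshold. Ltbp1 was at 12.9 ± 2.68 and 13.8 ± 1.09 FPKM.

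Against ND, few of the 47 genes were called in the supplemented mice. In CLE 1 was called, Smad7, against 2.98% of all genes (2.11% higher). In LU 4 were called, against 6.57% of all genes, with Tgfb1 and Gdf3 higher (4.98% of all genes) and Acvr1c and Ltbp2 lower (1.59%). For CLE the corresponding values were 0.43 ± 0.15 (adjusted p = 0.104) for Tgfb1, 0.50 ± 0.16 (adjusted p = 0.0798) for Gdf3, -0.91 ± 0.26 (adjusted p = 0.0654) for Acvr1c and -0.32 ± 0.17 (adjusted p = 0.287) for Ltbp2. Nog differed from ND by -0.92 ± 0.27 (adjusted p = 0.0656) in CLE and -0.88 ± 0.27 (adjusted p = 0.0524) in LU without passing the test, although no supplemented mouse reached the lowest ND mouse. A gene that did not pass in these comparisons is not thereby shown to be at the ND level.

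Between CLE and LU, limma called 0 of the 47 genes, against 0.0078% of all genes, which is 1 gene. At an unadjusted p under 0.05 there were 2 of the 47 and 667 of all genes. The 2 were Tgfbr3, higher in CLE at 0.49 (95% interval 0.08 to 0.89, adjusted p = 0.897), and Tgfb2, lower at -0.25 (95% interval -0.47 to -0.02). For 3 genes called against HFD with both supplements the difference was 0.20 (95% interval -0.09 to 0.49) for Id1, -0.05 (-0.35 to 0.26) for Tgfbr1 and 0.26 (-0.25 to 0.78) for Bmp4. For Gdf15 the interval reached -1.02 to 0.12, and for Smad7 -0.22 to 0.79, so that differences of over 1.5-fold lie within them. The 8 genes called for CLE but not for LU against HFD, which are Bmp1, Tgfbr3, Acvr1b, Acvr1c, Inhbb, Gdf15, Smad7 and Id3, are therefore not shown to differ between the supplements.

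Pathway genes outside the 54, listed as ligands, antagonists, activators, regulators and targets, were counted in the same fit. The list held 73 symbols, among them alternative names of the same gene, such as Ctgf and Ccn2. Of the symbols, 71 had values and 46 were tested. Between HFD and ND, 10 were called higher and 6 lower, 34.8% of the 46 against 25.7% of all genes (14.9% higher and 10.8% lower). Between CLE and HFD, 5 were called higher and 9 lower, 30.4% against 16.6% of all genes (6.34% higher and 10.2% lower). Between LU and HFD, 4 were called higher and 8 lower, 26.1% against 12.4% of all genes (4.77% higher and 7.68% lower). Those with the largest changes included Nrros, a milieu molecule that tethers latent TGF-beta on myeloid cells, at 12.3 ± 0.982 FPKM in ND and 45.5 ± 4.67 in HFD (log2 fold change 1.803 ± 0.142, adjusted p = 2.19e-06). The matrix genes Bgn (biglycan) and Fbn1 (fibrillin-1, which anchors latent complexes) rose by 1.40 and 1.51 on the log2 scale, from 107 to 282 and from 33.0 to 92.4 FPKM in the mean. Pmepa1, a TGF-beta-induced inhibitor of SMAD2 and SMAD3 activation that is abundant in this tissue, fell from 264 ± 56.2 to 99.3 ± 5.23 FPKM (log2 fold change -1.38). Pmepa1 was at 242 ± 22.3 FPKM in CLE and 220 ± 18.1 in LU, and it rose over HFD by 1.28 and 1.14 on the log2 scale. The repressor gene Tgif1 and the ubiquitin ligase genes Nedd4l and Wwp1 rose in HFD by 1.35, 1.35 and 1.21 on the log2 scale. They fell with both supplements, by log2 fold changes against HFD of -0.99, -0.74 and -0.82 in CLE and -0.87, -0.63 and -0.78 in LU. Nrros, Bgn and Fbn1 also fell against HFD, by -1.34, -0.96 and -1.215 in CLE and -1.05, -0.62 and -0.92 in LU.

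The 7 genes that were not tested were Bmp5, Bmp7, Bmpr1b, Inha, Inhba, Grem1 and Bambi. Their highest value in any library was 0.740 FPKM for Bmp5, 0.620 for Bmp7, 0.311 for Bmpr1b, 0.466 for Inha, 0.670 for Inhba, 0.504 for Grem1 and 1.15 for Bambi. The activin A subunit gene Inhba was thus far below Inhbb, at 0.463 against 27.7 FPKM in the HFD mean, and gremlin 1 was listed at 0 in 3 libraries. In all, 23 of the 47 tested genes were called in at least 1 comparison and 24 in none. Of the 52 calls over all comparisons, 38 held in every fit that left out 1 library.

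The gene sums of the libraries were alike in scale, with totals of 438191 to 458413 FPKM and a Pearson correlation of log2 values within groups of 0.979 to 0.992. These sums held 7.15% to 34.4% of the total of a column, so the full columns were not alike in scale. The FPKM values come without read depth, so the precision of single low values is unknown. The letter R, which the labels do not explain, marks 4 libraries (mice 3 and 4 of ND, mouse 4 of CLE, mouse 2 of LU) and none of HFD, and a term for the letter gave 0 of 12815 genes at an adjusted p under 0.05 in limma and 526 at an unadjusted p under 0.05. Markers of epididymis epithelium were near 0, with 6 of 8 under 1 FPKM in every library, and skeletal muscle markers were not tested at sums of 0.306 to 15.8 FPKM. Summed T cell, B cell and mast cell markers stayed between 1.01 and 16.4 FPKM, with 3 of 4 tested mast cell markers called higher in HFD than in ND and 1 lower. Adipose progenitor markers summed to 207.1 to 300.6 FPKM over all groups, and liver markers to 1.66 to 31.6 FPKM, with 1 marker of each called lower in HFD than in ND. What part these cells have in the values was not tested.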

How the data were processed

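RNA of eWAT from 12 mice was measured by mRNA sequencing on libraries made with the Illumina TruSeq RNA kit. The submitters' processing notes name CASAVA 1.8.2, Bowtie2 2.2.3, TopHat2 2.0.12 and Cufflinks 2.2.1, and the genome build is not given in the sources used here. The authors deposited a table of FPKM for 152210 transcripts, known or assembled, in which 12 of 15 columns belong to these libraries. The other 3 columns matched none of the samples and were left out. The column headed MD4 was taken as ND mouse 4. A further 4 columns hold comparisons made by the authors and were not used.

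Transcripts were assigned to genes of the annotation GENCODE M21 (GRCm38), in which 87.6% of 77000 known transcripts had the same start and end, and summed per gene. The sums held 7.15% to 34.4% of each column's total, the rest lying in other assembled transcripts. Transcripts of Ak1 and B9d2 that the table names Eng and Tgfb1 were left out. The 54 genes, their roles, the other pathway genes and the cell type markers were chosen with earlier results of these data known. Every gene of the 54 called in any comparison is given by mouse, the other tested ones by means or ranges, the untested ones by their highest value, and beside them the 8 other pathway genes with the largest called changes, of which 1 is not reported here.

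The filter was at least 1 FPKM in at least 3 libraries. The test was limma 3.58.1 (R 4.3.3), run on log2 values with a pseudocount of 1, with 4 group means estimated jointly from the 12 libraries, moderated variances, no variance trend and no covariate. Adjustment by Benjamini-Hochberg was done within each comparison. The method was tested on simulated data. Depth cannot be read from FPKM, so no floor or counting interval is given. Tables and plots were made with Python 3.11.15, pandas 2.3.3, numpy 2.4.6 and matplotlib 3.10.9. Alternatives changed the pseudocount (to 0.1), the filter (none, or a mean of 5 FPKM), the scaling (3 ways), the libraries fitted (each pair of groups alone, no libraries marked R, or 1 library left out at a time), the model (a variance trend, array weights, a term for the letter R, a replicate block), the call (adjusted p alone) and the transcripts summed (the most abundant one, or known ones alone). Sums by the deposited gene name were added after seeing the data.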

Additional observations from a re-analysis of the deposited data

How the results depend on the processing

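The number of the 47 genes called was 19 between HFD and ND, 18 between CLE and HFD and 10 between LU and HFD, and it stayed within 1.5 times of these under every alternative run except the adjusted p alone for LU, which gave 16. Leaving out 1 library gave 17 to 22, 15 to 20 and 7 to 11 calls. Between CLE and ND the count of 1 became 0 without a filter, with equal totals, in a fit of only the 2 groups, with array weights and with the letter R as a covariate, and 2 with a filter on a mean of 5 FPKM or scaling by median ratios, and it ranged from 0 to 4 when 1 library was left out. The count stayed at 1 with a pseudocount of 0.1, the most abundant transcript or known transcripts alone, but Smad7 was not the gene called there. Between LU and ND the count of 4 ranged from 2 to 7 when 1 library was left out. Without the libraries marked R, ND mouse 2 is alone in its group, so no count against ND is given for that setting. Between CLE and LU it was 0 throughout.

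Mouse numbers are shared among ND, CLE and LU but not with HFD. Deviations from the group means of mice with the same number correlated at -0.102 to 0.187 over genes. So few pairs of libraries cannot settle whether the numbers pair the mice. With the number as a replicate block, 0 genes were called between CLE and ND, 2 between LU and ND and 0 between CLE and LU.

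Among the called differences, the direction reversed in 1 gene, Ltbp2, without transcripts of class code j, to 1.01 between HFD and ND and 1.02 between LU and ND. The cause was not tested. Differences that were not called are not covered by this count, and some changed sign there too. With known transcripts alone, Bmpr1a was at 20.2 FPKM in ND and 17.6 in HFD, against 28.0 and 30.5 with all transcripts. Bmpr2 was at 5.16 and 8.22, against 14.4 and 13.8. Of the 52 called differences, between 0 and 3 were no longer called under each scaling, weighting, pseudocount or moderation setting, without a filter, in fits of 2 groups or with the letter R as a covariate. The number was 8 with the most abundant transcript and 12 without class code j, which counts both reversed differences of Ltbp2 and the call of Smad9, not tested there. No number is given without the libraries marked R, where ND mouse 2 is alone in its group. With a filter on a mean of 5 FPKM the 10 calls of Gdf3, Gdf15, Smad9, Id4 and Fst were not tested and the other 42 remained called, so that 15, 15 and 8 genes were called in the 3 comparisons with HFD. None was lost with sums by the deposited gene name, an alternative added after seeing the data. The HFD libraries all lack the letter R, so the letter could be separated from diet within ND, CLE and LU only. The median log2 fold change of all genes shifted by less than 0.1 under each scaling. Read depth is unknown from FPKM and limits what can be said of Gdf3, Smad9 and Id4, which lay near or below 1 FPKM in at least 1 group.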
